A study of Mus musculus with 4 samples.

Results

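The MHC class II presentation genes described here are 5 genes, H2-Aa, H2-Ab1, H2-Eb1, Cd74 and Ciita, found by matching the RefSeq transcript accession of each non-control probe to its gene symbol. They carried 9 of the 56605 probes and were 5 of the 16794 genes tested. Probes annotated by other kinds of accession were not named, so these genes may have further probes that were not used here. Their differences between the groups below were known when they were chosen, so their values are a description and carry no test. The arrays were Agilent 1-colour mouse arrays, hybridised with Cy3-labelled RNA from dorsal hippocampus that was taken from female mice once behavioural testing had ended. The 20-fold iodine group (intake of 20-fold iodine) had 2 arrays, replicates 2 and 3, and the control group had 2 arrays, also replicates 2 and 3. Neither strain nor age was given in the labels, and nothing there says that the replicates were separate animals, so all spreads below are between samples and may be technical.

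Class II molecules are pairs of an alpha and a beta chain that display peptides from engulfed proteins to CD4+ T cells. The invariant chain, encoded by Cd74, escorts the pair out of the endoplasmic reticulum and fills its groove until a peptide is loaded. Ciita is the transactivator that class II promoters need, and interferon gamma induces it in many cells. In healthy brain, class II is found mainly on macrophages and dendritic cells of the meninges, choroid plexus and perivascular spaces, and little on resting microglia.

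The 4 arrays shared 1 slide and 1 scan, with the iodine samples in columns 3 and 4 and the control samples in columns 1 and 2, so slide position and group cannot be told apart. Probes flagged as well above background numbered 37533 to 37921 per array, and no spot was saturated. Signals are given as the scanner software's processed signal and, for every comparison, as log2 signal relative to the array's own 75th percentile, which was 150 and 144 in the iodine arrays and 159 and 154 in the control arrays. Microglia and hippocampal neuron markers were detected, 14 of 14 and 9 of 9 of the lists, which fits the tissue label. Limma's adjusted p was under 0.05 in 0 of the 16794 genes (0%), with 1234 genes (7.35%) at an unadjusted p under 0.05. None of the 5 class II genes was in either set.

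H2-Aa, H2-Ab1, H2-Eb1, Cd74 and Ciita were all lower on average in the 20-fold iodine arrays, with log2 differences between -1.36 and -0.69 and a median of -0.91, against a median of -0.01 over all genes tested. Of all genes, 54.4% had a difference below 0. A log2 difference of -0.5 or lower was found in 5 of the 5 genes and in 1.79% of all genes. The iodine and control arrays did not overlap in 3 of the 5 (H2-Aa, H2-Eb1 and Ciita), while 21.9% of all genes were lower in iodine with no overlap and 39.9% did not overlap in either direction. Since the genes were chosen on this contrast, these shares are given as background. In bulk tissue, fewer cells of a type and less RNA per cell cannot be told apart.

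H2-Aa encodes the alpha chain of the I-A molecule and had 1 probe. Its processed signal was 2.85 and 7.81 in iodine replicates 2 and 3, against 10.6 and 15.7 in control replicates 2 and 3. Iodine replicate 2 was not well above background, and the other 3 arrays were. On the log2 scale the iodine arrays averaged -4.96 ± 1.06 and the control arrays -3.60 ± 0.43 (SD, n = 2 each), a difference of -1.36 ± 0.57 (SE). With the undetected signal raised to the lowest one well above background on that array, the difference was -1.01.

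H2-Ab1, the beta chain that pairs with H2-Aa, had 4 probes, and all 4 were lowest on iodine replicate 2 and highest on control replicate 3. The brightest, A_55_P1962747, had processed signals of 65.9 and 169 in the iodine arrays, against 178 and 251 in the control arrays. A_55_P2146560 gave 60.8 and 154 in iodine and 139 and 254 in controls, and A_52_P683598 gave 32.3 and 76.3 in iodine and 65.6 and 122 in controls. The dimmest, A_55_P2741874, gave 4.803 (not well above background) and 15.8 in iodine and 14.1 and 23.9 in controls. In each of the 4 probes, iodine replicate 3 lay above control replicate 2 after scaling, so the groups overlapped. The probes' log2 differences were close together, between -0.99 and -0.76, and that of the brightest probe was -0.91 ± 0.53 (SE, n = 2 per group).

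H2-Eb1 encodes the beta chain of the I-E molecule. Its 1 probe had processed signals of 68.0 and 139 in the iodine arrays, against 166 and 228 in the control arrays, all well above background. The groups did not overlap, although iodine replicate 3 (-0.06 on the log2 scale) and control replicate 2 (0.06) were near each other. The log2 difference was -0.91 ± 0.42 (SE, n = 2 per group), with means of -0.60 ± 0.77 in iodine and 0.32 ± 0.35 in controls (SD).

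The promoters of H2-Aa and H2-Eb1 are shown because class II genes are known to share an X box, bound by RFX, and a Y box, bound by NF-Y, on which CIITA acts. The sequences are RefSeq's on GRCm38.p6, 5′ to 3′ on the gene's strand, from 250 bases before to 50 after the transcription start. H2-Aa lies at chr17:34287774-34288073 on the minus strand and H2-Eb1 at chr17:34305617-34305916 on the plus strand. Capitals mark GCAAC, the core of the X box, and the ATTGG that follows it, the Y box (CCAAT on the other strand). Copies outside this pair, such as a CCAAT further downstream in H2-Eb1, are in lower case.
H2-Aa: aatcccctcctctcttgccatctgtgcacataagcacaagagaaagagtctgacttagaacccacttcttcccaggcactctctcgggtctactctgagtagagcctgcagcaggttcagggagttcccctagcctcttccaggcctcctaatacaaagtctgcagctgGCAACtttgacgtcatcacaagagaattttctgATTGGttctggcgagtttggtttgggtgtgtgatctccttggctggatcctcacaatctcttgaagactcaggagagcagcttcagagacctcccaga
H2-Eb1: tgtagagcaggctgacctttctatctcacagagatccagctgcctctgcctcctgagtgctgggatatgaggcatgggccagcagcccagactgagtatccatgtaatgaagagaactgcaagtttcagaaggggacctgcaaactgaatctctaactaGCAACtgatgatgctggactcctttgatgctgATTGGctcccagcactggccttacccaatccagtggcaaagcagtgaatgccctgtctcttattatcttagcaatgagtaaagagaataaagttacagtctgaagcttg
In H2-Aa 28 bases separate the 2 motifs and in H2-Eb1 27 bases. Over 32851 promoter windows of the same length and on both strands, GCAAC was found in 35.2%, ATTGG in 37.4%, and GCAAC followed by ATTGG after 20 to 35 bases in 0.794%. That spacing was set with these promoters in view, and the motifs do not overlap in it. The promoters of H2-Eb2, H2-Oa and H2-Ob hold the pair too, and the windows of H2-DMa, H2-DMb1 and H2-DMb2 do not hold the pair at this spacing.

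Cd74 encodes the invariant chain. Its 1 probe had processed signals of 52.2 and 112 in the iodine arrays, against 99.99 and 173 in the control arrays. Iodine replicate 3 was above control replicate 2, so the groups overlapped. The log2 means were -0.94 ± 0.82 in iodine and -0.25 ± 0.59 in controls (SD, n = 2 each), a difference of -0.69 ± 0.50 (SE).

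Ciita, the transactivator, was near the background of the array. Its probe A_66_P119948 had processed signals of 3.26 (not well above background) and 7.33 in the iodine arrays, against 10.3 and 13.5 in the control arrays, with no overlap. The log2 difference was -1.18 ± 0.46 (SE, n = 2 per group), and -0.92 with the undetected signal raised to the lowest one well above background. The scanner software's own error was 1.05 and 1.24 for the iodine signals and 1.43 and 1.68 for the control signals. A second probe for the same transcript, A_55_P2741198, was not well above background on any array, at 1.03 to 1.67, and gives no level.

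**Figure D1:**
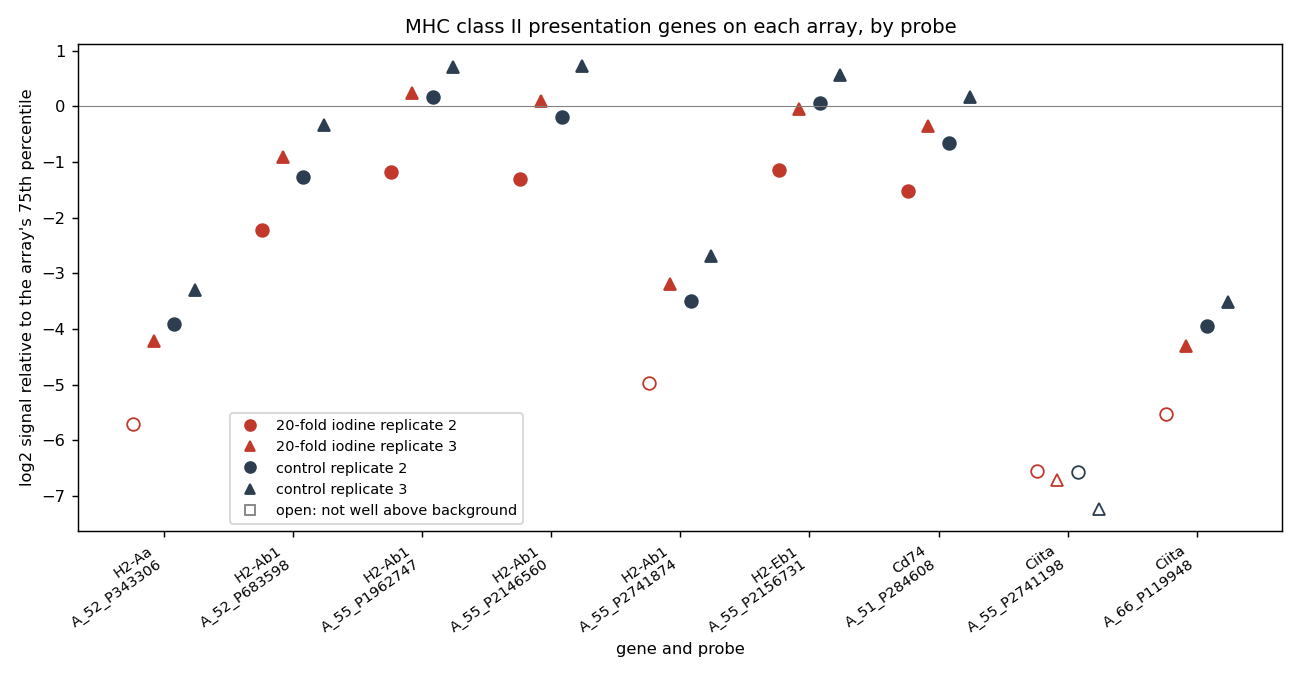
The log2 signal of each of the 9 class II probes relative to its array's 75th percentile, with red for 20-fold iodine and dark blue for control, circles for replicate 2 and triangles for replicate 3, and open symbols where the probe was not well above background. On the 8 probes detected on any array, iodine replicate 2 is the lowest and control replicate 3 the highest, and iodine replicate 3 stands close to control replicate 2. Heights of different probes are not comparable.

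The 5 genes shared their lowest and their highest array. Iodine replicate 2 was the lowest and control replicate 3 the highest in 5 of the 5 genes, which was so in 7.42% of all genes tested. Between them, iodine replicate 3 was below control replicate 2 in H2-Aa, H2-Eb1 and Ciita and above it in H2-Ab1 and Cd74. Their mean deviation from the 4-array mean was -1.14 in iodine replicate 2 and 0.13 in iodine replicate 3, against 0.21 in control replicate 2 and 0.80 in control replicate 3. Pearson's r between pairs of the 5 genes was 0.932 to 0.999 over the 4 arrays, which the genes share, so it is a description only.

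The gap between the 2 iodine arrays was larger than the difference between the groups in H2-Ab1, H2-Eb1 and Cd74, whose probes were well above background on both. Iodine replicate 3 exceeded iodine replicate 2 by 1.41 in H2-Ab1, 1.08 in H2-Eb1 and 1.16 in Cd74 on the log2 scale. For H2-Aa and Ciita the measured gaps were 1.51 and 1.22, larger than the measured differences of -1.36 and -1.18, with iodine replicate 2 undetected. With that signal raised to the lowest one well above background, the gaps were 0.81 and 0.72 and the differences -1.01 and -0.92. Raising it shrinks the gap more than the difference, so which is larger cannot be told for H2-Aa and Ciita. Between control replicates 3 and 2 the gap was 0.43 (Ciita) to 0.83 (Cd74). On iodine replicate 2, 5 of the 9 class II probes were well above background, against 8 of 9 on each other array.

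The size of the difference depended on single arrays, with the direction kept in all 5 genes when any 1 array was left out. Without iodine replicate 2 the log2 differences were -0.60 for H2-Aa, -0.21 for H2-Ab1, -0.37 for H2-Eb1, -0.11 for Cd74 and -0.57 for Ciita, with a median of -0.37. Without control replicate 3 they were -1.05, -0.65, -0.66, -0.27 and -0.96 in the same order, with a median of -0.66. Without iodine replicate 3 the median was -1.62, and without control replicate 2 it was -1.18. Iodine replicate 3 set against control replicate 2 alone, a comparison of 2 arrays added after the data were seen, gave -0.30 for H2-Aa, 0.061 for H2-Ab1, -0.12 for H2-Eb1, 0.31 for Cd74 and -0.35 for Ciita. The signs differed between genes there, with 3 of 5 below 0 and 55.3% of all genes below 0. Between same-numbered arrays all 5 genes were below 0, which follows from their shared lowest and highest arrays. For replicates 2 the differences were -1.80 (H2-Aa) to -0.85 (Cd74), and for replicates 3 they were -0.91 (H2-Aa) to -0.48 (H2-Ab1).

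**Figure D2:**
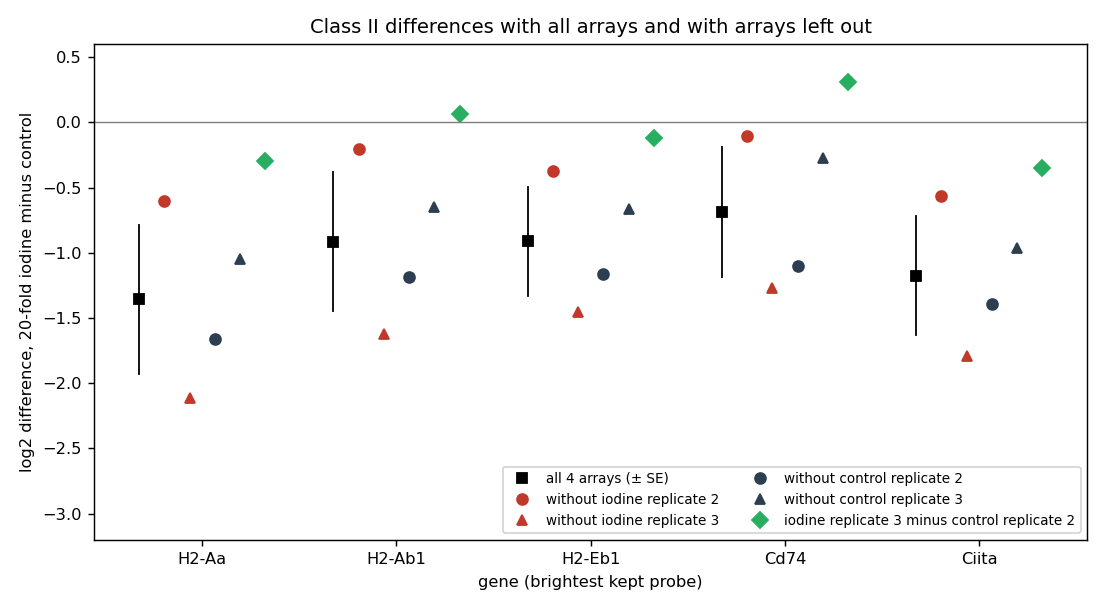
Log2 differences of the 5 class II genes (20-fold iodine minus control) with all 4 arrays (black squares, bars are ± SE) and with single arrays left out (red without an iodine array, dark blue without a control array). Green diamonds are iodine replicate 3 minus control replicate 2, which lie between -0.35 and 0.31, and leaving out iodine replicate 2 brings every gene nearer to 0 than leaving out any other single array.

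Other genes of the pathway did not pass the test as single genes, with 0 called in either direction in each of the 4 lists below. Of the genes for further class II chains and peptide loading, 11 of 14 were tested, 7 were lower and 4 higher in iodine, and the median log2 difference was -0.06. H2-DMa and H2-DMb1, the chains of the DM molecule that exchanges the invariant chain's fragment for peptide, had 0.05 ± 0.11 and 0.14 ± 0.18 (SE). Processed signals of H2-DMa were 104 and 97.6 in iodine, against 97.2 and 111 in controls, so the groups overlapped. H2-Oa and H2-Ob, the chains of the DO molecule that restrains DM, had 0.31 ± 0.34 and 0.44 ± 0.12. Processed signals of H2-Ob were 12.6 and 11.99 in iodine, against 8.84 and 10.5 in controls, with no overlap, and its second probe was not well above background on any array.

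Ifi30, a reductase that opens disulphide bonds of antigens, had processed signals of 25.0 and 30.3 in iodine, against 35.1 and 39.5 in controls. The groups did not overlap, and the log2 difference was -0.35 ± 0.15 (SE). The proteases Ctss (-0.06), Ctsl (-0.07), Ctsb (-0.04), Lgmn (-0.07) and Sppl2a (-0.07), which degrade antigen or the invariant chain, and Marchf1 (-0.06), which marks class II for removal, were all between -0.07 and -0.04. H2-DMb2 was not well above background on any array. Of the 2 probes of H2-Eb2, 1 was well above background on 1 array, control replicate 3 (7.27), and stood at 1.01 and 4.47 in iodine and 3.28 in control replicate 2.

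Genes for factors acting at class II promoters were 7 lower and 3 higher of 10 tested, with a median log2 difference of -0.06. The RFX subunit genes Rfx5 (-0.07 ± 0.07), Rfxap (0.06 ± 0.08) and Rfxank (-0.04 ± 0.21) were near 0. The NF-Y genes had -0.23 ± 0.17 (Nfya), -0.23 ± 0.08 (Nfyb) and -0.04 ± 0.07 (Nfyc). Nfyb had processed signals of 303 and 273 in iodine, against 369 and 351 in controls, on its brightest probe. Its other 2 probes gave 52.0 and 52.1, and 70.5 and 69.5, in iodine, and 53.0 and 50.4, and 69.3 and 66.3, in controls, which is not the same direction after scaling.

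Interferon gamma signalling genes, some of which act above Ciita, were 6 lower and 3 higher of 9 tested, with a median of -0.08. Ifng itself was not well above background on any array. Irf1, a transcription factor induced by interferon, had -0.30 ± 0.25 (SE), and without control replicate 3 it was 0.04. Nlrc5, the class I counterpart of Ciita, had -1.06 ± 0.59, with processed signals of 9.70 and 10.5 in iodine, against 12.7 and 39.5 in controls. Without control replicate 3 it was -0.22. Leaving out iodine replicate 2 gave -0.98 for Nlrc5 and -0.57 for Ciita.

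Co-stimulatory genes, which give T cells their second signal, were 2 lower and 3 higher of 5 tested, with a median of 0.04. Cd80 had 0.11 ± 0.08, Cd86 -0.21 ± 0.29 and Cd40 0.12 ± 0.34 (SE). The other probes of Cd80 were not well above background on any array, and Cd40 was not on iodine replicate 2. Cd274, which encodes the inhibitory ligand PD-L1, had -1.04 ± 0.45, with processed signals of 16.8 and 15.9 in iodine, against 23.3 and 54.7 in controls, and -0.40 without control replicate 3.

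**Figure D3:**
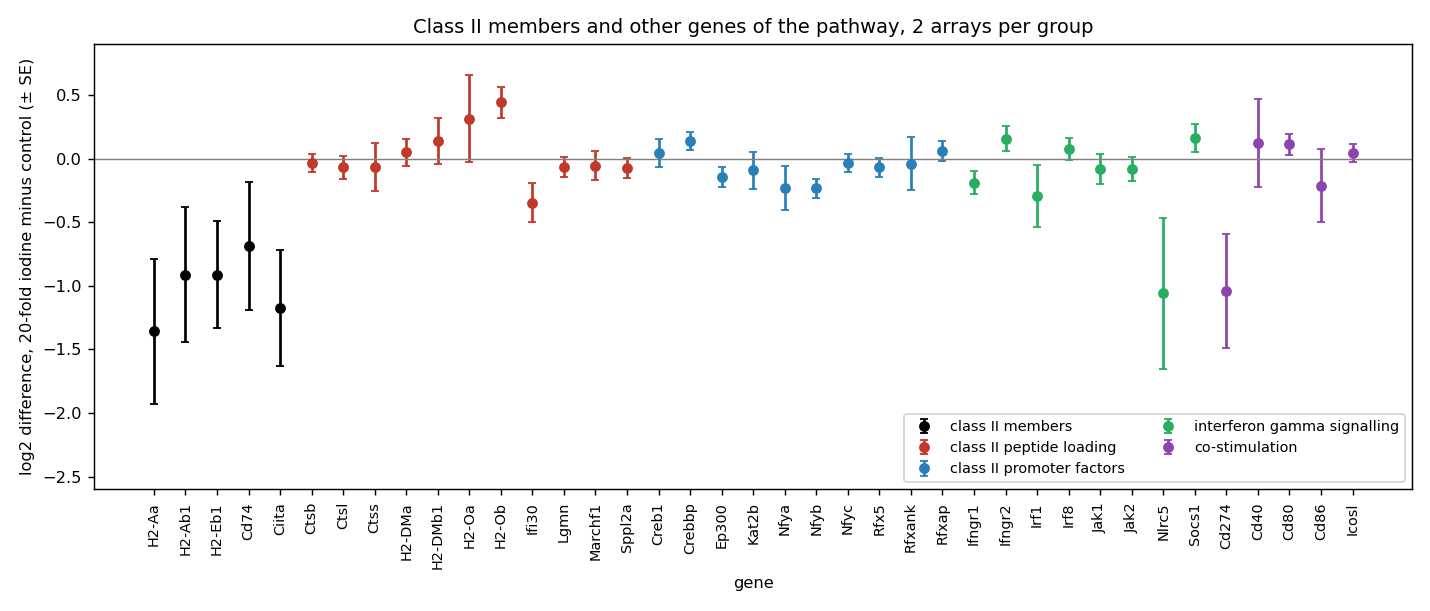
Log2 differences (20-fold iodine minus control, ± SE, 2 arrays per group) of the 5 class II genes in black and of other tested genes of the pathway, coloured by list. The class II genes lie between -1.36 and -0.69, and of the others drawn Nlrc5 (-1.06) and Cd274 (-1.04) lie in that range.

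The 3 H2 chain genes neighbour each other in the RefSeq table, in the order H2-Ab1, H2-Aa and H2-Eb1. From H2-Oa to H2-Ea the table lists 16 genes on chromosome 17, of which 12 were tested, a stretch chosen after the values were seen. Among the 9 that are not class II members, 1 was lower in iodine with no overlap (Tap2, a peptide transporter subunit, -0.38 ± 0.21 SE) and 1 was higher (H2-Ob). Over all genes tested, 21.9% were lower with no overlap and 39.9% did not overlap in either direction, so these counts are no result about the stretch. The immunoproteasome genes Psmb9 (-0.78 ± 0.52) and Psmb8 (-0.59 ± 0.42) and the transporter gene Tap1 (-0.57 ± 0.45), which serve class I, stood high on control replicate 3. On the log2 scale Psmb9 was -1.59 and -1.47 in iodine, against -1.49 and -0.01 in controls. H2-Ab1 was -1.18 and 0.23 in iodine, against 0.17 and 0.71 in controls, so iodine replicate 2 stood apart in H2-Ab1 and not in Psmb9.

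The cell type marker lists showed which cells' genes were low on the same array. Choroid plexus epithelium markers (7 of 7 tested) had median deviations of -1.19 and 0.93 in iodine replicates 2 and 3, against 0.26 and 0.15 in control replicates 2 and 3. Their summed level, in units of the 75th percentile, was 53.7 and 271 in iodine and 164 and 145 in controls. Ttr, the choroid plexus gene for transthyretin, had processed signals of 7356 and 36602 in iodine, against 24129 and 20627 in controls. Folr1, a folate receptor, had log2 levels of 0.24 and 2.09 in iodine, against 1.68 and 1.68 in controls. Iodine replicate 2 was thus lowest for this list as for class II, while iodine replicate 3 was highest, which it was not for class II.

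Meningeal fibroblast markers (8 of 8 tested) had deviations of -0.52 and 0.34 in iodine and -0.03 and 0.12 in controls, with summed levels of 15.9 and 26.6 in iodine and 22.3 and 28.3 in controls. Col1a2, a collagen gene, had processed signals of 274 and 515 in iodine, against 504 and 467 in controls, and Col1a1, another collagen gene, had 76.9 and 106 in iodine, against 73.9 and 98.2 in controls. The groups overlapped in both collagen genes. Border macrophage markers (8 of 9 tested, Lyve1 not well above background on any array) had deviations of -0.51 and 0.19 in iodine and -0.03 and 0.17 in controls. Their summed levels were 1.02 and 1.60 in iodine, against 1.38 and 1.501 in controls. Mrc1, the mannose receptor of these macrophages, had processed signals of 13.4 and 28.6 in iodine, against 22.7 and 27.1 in controls, and Cd163, a haemoglobin scavenger receptor, had 8.98 and 9.53 in iodine, against 19.6 and 11.02 in controls. The part of these cell types in the class II values was not tested.

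Dendritic cell markers (5 of 9 tested) had a median log2 difference of -0.22 and deviations of -0.10 and -0.15 in iodine, against 0.11 and 0.09 in controls, while Xcr1, Clec9a and Cd209a were not well above background on any array. Itgax, which encodes CD11c, was not well above background on either iodine array, with measured log2 means of -5.01 in iodine and -4.44 in controls. With iodine replicate 2 raised to the lowest signal well above background on that array, the control arrays were 1.46-fold brighter. That is no firm bound, since the undetected signal of iodine replicate 3 was above the lowest detected one there. Flt3, a growth factor receptor of dendritic cell precursors, had a log2 difference of -0.04 ± 0.11 (SE). Of the 5 tested, 3 were lower and 1 higher with no overlap. Among all genes 21.9% were lower with no overlap, and 39.9% did not overlap in either direction. Limma's unadjusted p was under 0.05 in 3 of the 5, against 7.35% of all genes, and none passed its adjusted p. Itgax is in both counts but was kept through the control arrays only, where it is high, so it adds no support. The others with an unadjusted p under 0.05 were Batf3, a transcription factor of dendritic cells, at -0.63 ± 0.16, and Clec10a, a lectin, at -0.22 ± 0.08 (SE). Both were named after their values were seen. B cell markers (4 of 7 tested, Ms4a1 and Cd79a not well above background on any array) had deviations of 0.01 and -0.10 in iodine and -0.13 and 0.15 in controls. Microglia markers (14 of 14 tested) had deviations of 0.04 and -0.06 in iodine and -0.09 and 0.12 in controls, against -1.16 and 0.08 in iodine and 0.21 and 0.76 in controls for the class II genes. Tmem119, a microglia gene, had log2 levels of 0.73 and 0.64 in iodine, against 0.62 and 0.59 in controls, with no overlap and a difference of 0.08 ± 0.08 (SE). P2ry12, a purine receptor of microglia, had 138 and 129 in iodine, against 159 and 176 in controls, with no overlap and a log2 difference of -0.24 ± 0.10 (SE). Of the 14 microglia genes, 6 were lower and 8 higher in iodine, 1 lower and 2 higher with no overlap, and the median difference was 0.0042. T and NK cell, monocyte and neutrophil, red blood cell, endothelial and hippocampal neuron lists had deviations between -0.02 and 0.17 on iodine replicate 2. On control replicates 2 and 3 the monocyte and neutrophil list had -0.18 and 0.35, and the red blood cell list -0.37 and 0.25. The T and NK cell, endothelial and hippocampal neuron lists lay between -0.10 and 0.04 on these arrays.

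**Figure D4:**
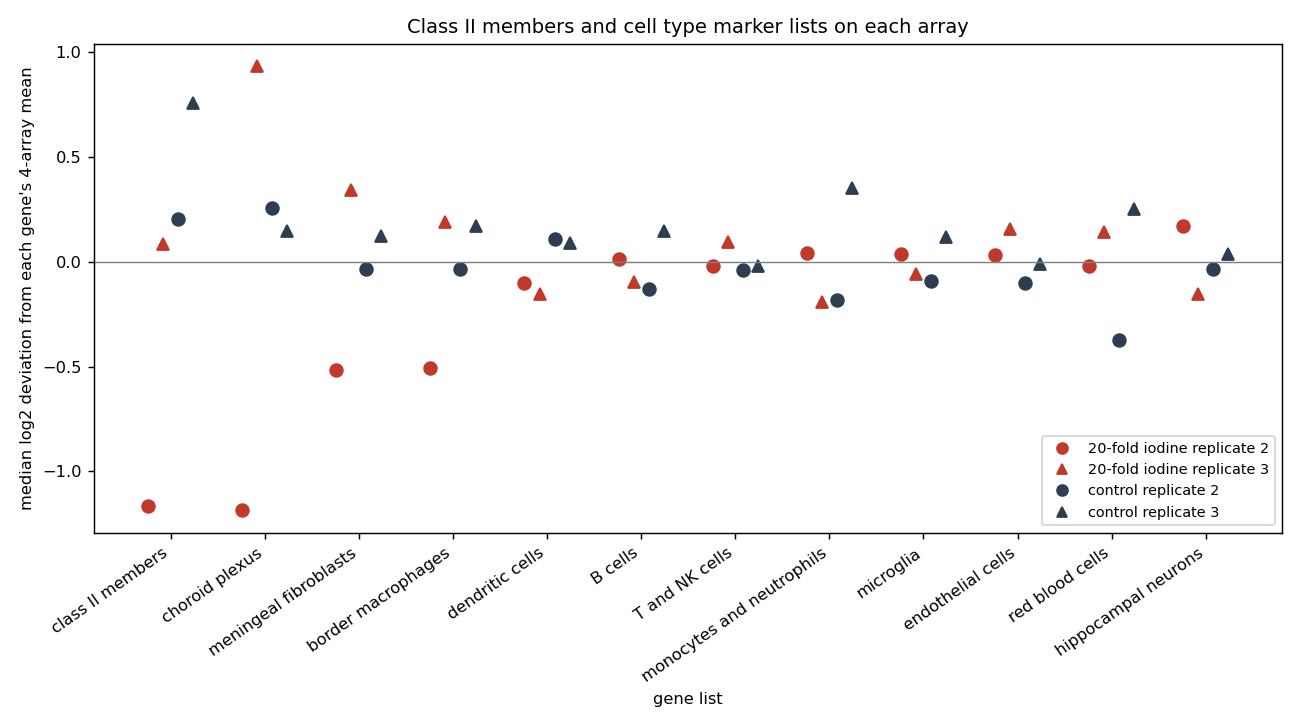
Median log2 deviation of each list's genes from their own 4-array means, for the class II genes and the cell type marker lists, by array (red for 20-fold iodine, dark blue for control, circles for replicate 2 and triangles for replicate 3). On iodine replicate 2 the class II genes (-1.16), choroid plexus (-1.19), meningeal fibroblast (-0.52) and border macrophage (-0.51) lists are low, and the other lists lie between -0.10 and 0.17.

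The 8 named genes whose profile was most like the class II mean over the 4 arrays were, in order of likeness, Spo11, Hsd17b2, C2, BC061237, Cnn1, Clca4a, Ch25h and Lilrb4a. Their root mean square difference from the class II profile was 0.134 to 0.205, and r was 0.959 to 0.987 over 4 arrays. For the 5 class II genes themselves the root mean square difference was 0.070 to 0.192, but they are part of that profile. The 8 were picked for small values, so setting the ranges side by side is a description only. C2, a complement component, was -2.39 and -1.03 in iodine, against -1.15 and -0.78 in controls on the log2 scale. Ch25h, an enzyme that makes an oxysterol, was -4.18 and -3.35 in iodine, against -2.75 and -2.30 in controls, with no overlap. Lilrb4a, an inhibitory receptor of myeloid cells, was -4.45 and -3.42 in iodine, against -3.61 and -2.96 in controls. Spo11 was well above background on 2 of the 4 arrays, both of them controls. It was thus kept through the control group only, and its likeness rests on undetected iodine signals. Hsd17b2 and Clca4a were well above background on 3 arrays. Hsd17b2 was at -6.14 on iodine replicate 2, under that array's lowest detected level of -5.02. Its likeness thus rests in part on an undetected iodine signal.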

How the data were processed

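Each array came as 1 deposited scanner file from Feature Extraction 12.1.1.1 (Agilent). Its intensity is the processed signal, background-subtracted and detrended within the array per the file headers, and not normalized between arrays. Flags for background, saturation and outlier spots were used as deposited. Each array held 62976 spots, 3671 of them controls. Outlier spots (47 to 70 per array) were left out, spots of a probe averaged as log2, and each array's 75th percentile over the 56605 probes subtracted. A probe was kept when 2 or more of the 4 arrays had it well above background, which left 38231. Probes were named through the unversioned accession in a RefSeq table (GRCm38.p6), which named 32994 probes (58.3%). The array design names an older build, so no probe coordinates are given; those of the promoters are the RefSeq table's own. Each gene was its brightest kept probe. Limma 3.58.1 (lmFit, eBayes, two-sided) in R 4.3.3 fitted 20-fold iodine minus control over 16794 genes, with Benjamini-Hochberg adjustment. SEs of members come from that fit. It was tested on simulated data. Member genes and gene lists were chosen with earlier results of these data known. Named genes are the members, the pathway lists, the first 2 tested and the undetected genes of the marker lists discussed, and the 8 genes most like the members; other genes of the class II region, with Psmb9, Psmb8, Tap1 and Tap2, were added after their values were seen. A gene of the pathway lists is counted in its list but not reported here by itself. Only 4 arrays limit the precision.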

Additional observations from a re-analysis of the deposited data

How the results depend on the processing

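No gene was called by limma's adjusted p under any other setting fitted. The median log2 difference of the 5 class II genes was between -1.62 and -0.37 with single arrays left out, and -0.12 for iodine replicate 3 minus control replicate 2 alone, where H2-Ab1 (0.061) and Cd74 (0.31) turned positive. Where 1 array was left in a group, its spread was taken from the other group. With normexp (offset 50, on the median spot signal, as no mean signal column was used), 1 class II gene was lower with no overlap. The number was 3 with quantile normalization after normexp and 1 of 3 with probes well above background on all 4 arrays. With single arrays left out it was 3 to 5, where 1 array in a group makes no overlap easier to reach. The 5 follows from the shared lowest and highest arrays. Shares of all genes under these settings are not given, so the counts are a description only. With normexp the median was -0.42, H2-Aa was -0.15 and Ciita -0.04 (-0.43, -0.21 and -0.11 with quantile normalization too). The offset draws differences of dim probes toward 0. Same-numbered deviations had r = -0.02 over 16794 genes, which cannot exclude that the numbers 2 and 3 pair the arrays. In all 5 class II genes replicate 3 exceeded replicate 2 in both groups. With the replicate block the median stayed -0.91 with 0 genes called. Slide as a block was not run, since all arrays lay on 1 slide. H2-Aa and Ciita are limited by signal near background.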
